A study of Homo sapiens with 6 samples.

Results

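The regions described here are the stretches of open chromatin that overlap the start of exactly 1 named gene in the established human melanoma line A375. Accessibility was measured by ATAC-seq, which uses the transposase Tn5 to place sequencing adapters where DNA is open. A region was kept where the authors' deposited tables gave it a distance of 0 to a gene start, only 1 gene name at that distance, and a mean signal of at least 50 normalised reads over the 6 libraries. This left 8069 regions with 8069 different gene names on 23 chromosomes, which is 3.56% of the 226920 regions in all. The members were thus selected on the mean signal, which is given as a description only. The libraries formed 3 groups of 2, namely cells labelled both mock and untreated, and cells exposed to recombinant HMGA1 (reHMGA1) during either 2 h or 18 h. All cells were frozen after treatment, and the labels name no vehicle or control protein for the mock cells. The protocols speak of 2 biological replicates but do not say whether separate cultures were used. The p-values therefore reflect only how far these libraries varied, which may be technical.

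A gene start is where RNA polymerase begins transcription, and in a cell line the starts of widely used genes lie in short stretches without nucleosomes that stay accessible. Many of these stretches are CpG islands, rich in G and C and bound by general factors, whereas starts with few CpG pairs more often belong to genes used in particular tissues or after a stimulus. HMGA1 shapes chromatin through AT hooks, which grip the minor groove where A and T bases abound, and the study asked what its entry into melanoma cells does. The deposited tables hold no values of single libraries, so each region is given by its mean signal over all 6 libraries, the authors' log2 fold change and its standard error (SE). The depth of each library is unknown. Called regions are those with an adjusted p under 0.05 in the deposited table.

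Upstream sequences of 8 called members are shown as examples of base composition and of the short motifs that such starts hold. Each is the 250 bases before the gene's start, 5′ to 3′ on the gene's strand, from RefSeq (GRCh38.p14). Capitals mark matches, on either strand, to 8 motifs: the TATA box (TATAAA), the CCAAT box (CCAAT), the GC box (GGGCGG), the cyclic AMP response element (TGACGTCA), the AP-1 site (TGANTCA, where N is any base), the E-box (CACGTG), the ETS site (CCGGAAGT) and the NRF1 site (GCGCATGC). The first 3 are the members called higher at 2 h, and CPA4 was called lower at 18 h than at 2 h. SHISA4 and TUBA1A were called lower at 2 h, and CIART and CD74 were called higher at 18 h than at 2 h. They lie at chr10:90921088-90921337, minus strand (ANKRD1), chr1:85578201-85578450, minus strand (DDAH1), chr12:50396610-50396859, minus strand (FAM186A), chr7:130292911-130293160, plus strand (CPA4), chr1:201888427-201888676, plus strand (SHISA4), chr12:49189081-49189330, minus strand (TUBA1A), chr1:150282304-150282553, plus strand (CIART) and chr5:150412911-150413160, minus strand (CD74).
ANKRD1: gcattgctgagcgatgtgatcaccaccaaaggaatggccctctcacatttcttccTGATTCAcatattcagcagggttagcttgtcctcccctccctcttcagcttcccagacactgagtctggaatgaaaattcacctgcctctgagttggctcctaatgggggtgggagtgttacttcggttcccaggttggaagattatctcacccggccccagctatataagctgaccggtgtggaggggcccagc
DDAH1: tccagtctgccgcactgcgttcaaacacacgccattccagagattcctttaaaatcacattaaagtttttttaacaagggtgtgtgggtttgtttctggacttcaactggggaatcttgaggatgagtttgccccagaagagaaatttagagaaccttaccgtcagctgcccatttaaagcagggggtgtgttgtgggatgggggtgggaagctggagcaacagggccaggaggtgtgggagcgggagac
FAM186A: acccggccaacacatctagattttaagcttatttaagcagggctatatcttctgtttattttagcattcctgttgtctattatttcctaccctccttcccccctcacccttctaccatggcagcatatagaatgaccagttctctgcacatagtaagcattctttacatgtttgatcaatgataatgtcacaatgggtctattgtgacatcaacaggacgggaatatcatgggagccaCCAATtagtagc
CPA4: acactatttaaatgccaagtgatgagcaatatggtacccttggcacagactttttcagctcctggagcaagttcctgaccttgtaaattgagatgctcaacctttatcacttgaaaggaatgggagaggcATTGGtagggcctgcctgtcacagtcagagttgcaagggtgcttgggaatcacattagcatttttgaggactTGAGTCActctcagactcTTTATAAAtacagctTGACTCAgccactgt
SHISA4: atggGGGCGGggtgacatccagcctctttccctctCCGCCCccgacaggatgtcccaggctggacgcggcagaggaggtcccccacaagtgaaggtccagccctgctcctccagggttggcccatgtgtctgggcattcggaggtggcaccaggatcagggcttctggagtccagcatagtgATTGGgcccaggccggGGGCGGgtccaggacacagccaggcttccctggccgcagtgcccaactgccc
TUBA1A: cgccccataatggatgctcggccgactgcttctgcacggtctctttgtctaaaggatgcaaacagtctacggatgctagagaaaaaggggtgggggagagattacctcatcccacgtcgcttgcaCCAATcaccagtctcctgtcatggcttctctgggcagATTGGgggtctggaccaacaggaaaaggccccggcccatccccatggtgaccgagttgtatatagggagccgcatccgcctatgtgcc
CIART: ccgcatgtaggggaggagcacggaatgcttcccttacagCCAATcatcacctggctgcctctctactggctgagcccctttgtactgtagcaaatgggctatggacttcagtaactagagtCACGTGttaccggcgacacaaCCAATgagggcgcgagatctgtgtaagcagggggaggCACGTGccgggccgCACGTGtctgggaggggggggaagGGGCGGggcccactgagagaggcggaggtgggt
CD74: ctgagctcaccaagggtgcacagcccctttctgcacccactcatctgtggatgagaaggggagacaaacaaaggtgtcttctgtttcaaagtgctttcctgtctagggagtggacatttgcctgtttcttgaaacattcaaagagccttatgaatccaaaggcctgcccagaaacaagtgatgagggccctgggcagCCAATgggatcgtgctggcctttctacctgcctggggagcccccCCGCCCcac

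The ANKRD1 run holds 1 AP-1 site that begins 195 bases before the start, and the CPA4 run holds 2, at 48 and 15 bases, beside a TATA box. The DDAH1 run holds none of the 8 motifs, and that of FAM186A holds a CCAAT box 12 bases before the start. The SHISA4 run holds 3 GC boxes, and that of CIART, which encodes a repressor of the circadian clock, holds 3 E-boxes at 129, 71 and 57 bases. The number of CpG pairs in these runs was 4 for ANKRD1, 5 for DDAH1, 2 for FAM186A and 0 for CPA4, against 9 for SHISA4, 11 for TUBA1A, 13 for CIART and 2 for CD74. An E-box was present in 7.26% and an AP-1 site in 7.71% of all 35116 RefSeq promoters of 300 bases (250 before the start and 50 after it). The 8 shown do not stand for all called members. At 18 h against 2 h, 8 members called higher had such a promoter, with a median of 9.5 CpG pairs (range 1 to 19). The 8 called lower that had one had a median of 10 (range 1 to 39). A match is only a run of letters and shows no binding.

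The members' mean signal, the value the limit was set on, had a median of 407 normalised reads, with quartiles of 242 and 609 and a highest value of 3040. Without any limit the median of all regions was 39.3, and 41.5% of all regions reached the limit of 50. The limit kept 87.9% of the 9178 regions at the start of 1 gene and left out 1109. Just inside it were LAG3 (50.03), SLITRK6 (50.12) and MRGPRF (50.15), and just outside it C16orf96 (49.89), CCR1 (49.91) and PCDHA3 (49.97). In length, 8063 of the members had a start and an end 501 bases apart.

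None of the 10 starts with the strongest signal was called in any comparison. Calls were rare among all tested members, at no more than 0.149% higher and 0.136% lower in any comparison. The lack of a call among 10 therefore says nothing particular about strong starts. PPP1R15B, a regulatory subunit of a phosphatase that acts on translation initiation, had the highest mean signal of 3040 normalised reads, followed by EDEM3, which acts in the disposal of misfolded glycoproteins, at 2186. The histone chaperone gene ASF1B stood at 1975, the methyltransferase gene METTL13 at 1933, DESI2 at 1899, ZNF687 at 1883, the RNA cleavage factor gene PCF11 at 1852, UBP1 at 1755, FBXO24 at 1740 and the histone methyltransferase gene KMT5C at 1720. The precision at such signals was high. At EDEM3 the log2 fold change was -0.03 ± 0.07 (SE) at 2 h and -0.01 ± 0.07 at 18 h against mock in the authors' deposited table. PPP1R15B was the only member whose SE (0.18 at 2 h) was at least 2 times the median of members of similar signal (2.41 times), so its strong signal came with an unusually imprecise fold change.

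Whether gene starts opened or closed soon after HMGA1 was added was addressed by comparing 2 h with mock. At 2 h, 3 members were higher (ANKRD1, DDAH1 and FAM186A) and 6 lower than in mock out of 7970 tested, by DESeq2 at an adjusted p under 0.05 in the authors' deposited table, which is 0.0376% and 0.0753% of the tested members. Over all 86137 tested regions, 0.856% were called higher and 0.421% lower. At an unadjusted p under 0.05, 20 members were higher and 557 lower, against 4.33% higher and 5.68% lower of all tested regions. The median member stood at -0.11 on the log2 scale, and 88.1% of members lay below 0, whereas the median of all tested regions was -0.06. Most members thus shared a slight offset below 0 at 2 h in the authors' scaling. With the same signal limit, regions over the starts of 2 or more genes had a median of -0.11, with 94.5% below 0. Those within 1 kb of a start had one of -0.10, with 77.3% below 0. The offset was thus not particular to the members.

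The call of the lower members depended on that offset. After the fold changes were centred on the median of all tested regions, 4 members were called higher and 1 lower (80.0% higher, against 33.3% in the deposited scaling). After centring within bins of mean signal, 7 were called higher and 0 lower. SHISA4 was the 1 lower member kept under the first centring, and none of the 6 was kept under the second. TPM1 joined the higher members under both, and JPH2, SH3TC2 and CTGF under the second; these names are given because of their values.

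The 3 members that rose at 2 h had moved by 1.65-fold to 1.79-fold. DDAH1 encodes the enzyme that breaks down asymmetric dimethylarginine, an inhibitor of nitric oxide synthesis. Its start region (chromosome 1, 85578057 to 85578558, mean signal 204) had a log2 fold change of 0.84 ± 0.18 (SE; adjusted p = 0.000891) at 2 h against mock in the authors' deposited table. At 18 h it stood at -0.23 ± 0.19 against mock, an interval that includes 0. FAM186A (chromosome 12, 50396455 to 50396956, mean signal 231) rose by 0.75 ± 0.17 (adjusted p = 0.00186) at 2 h and stood at -0.26 ± 0.17 at 18 h in the authors' deposited table. ANKRD1 encodes a muscle ankyrin repeat protein and is a textbook target gene of the YAP and TEAD regulators. Its start (chromosome 10, 90921069 to 90921570, mean signal 258) rose by 0.72 ± 0.15 (adjusted p = 0.000725) at 2 h and stood at -0.14 ± 0.16 at 18 h in the authors' deposited table. All 3 were thus above mock at 2 h only, and they were called lower at 18 h than at 2 h, as described below for that comparison.

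A signal of at least the median leaves out these 3, and also TPM1 (0.47) and JPH2 (0.40), both uncalled at 2 h in the authors' scaling. Among members with such a signal, the highest fold changes at 2 h were small and uncalled. They were 0.32 ± 0.12 (SE; adjusted p = 0.234) at CTGF, 0.25 ± 0.12 at the histone deacetylase gene HDAC9, 0.21 ± 0.09 at the carboxypeptidase gene CPA4, 0.21 ± 0.11 at CYR61, 0.19 ± 0.12 at the trefoil peptide gene TFF2 and 0.16 ± 0.12 at the cytokine gene CSF2 in the authors' deposited table. CTGF and CYR61 encode matricellular proteins and, like ANKRD1, are textbook YAP and TEAD targets. This trio was noticed after the values were seen and carries no test. The CYR61 start lies 2.48 kb from that of DDAH1 on chromosome 1, and there it was DDAH1, not CYR61 (adjusted p = 0.497 in the authors' deposited table), that was called.

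The 6 members called lower at 2 h had fallen by 0.28 to 0.45 on the log2 scale, and they included genes of several roles. SHISA4, a transmembrane protein gene, had the smallest adjusted p, with -0.32 ± 0.08 (SE; adjusted p = 0.00587) at 2 h and -0.09 ± 0.07 at 18 h against mock in the authors' deposited table. The orphan nuclear receptor gene NR2F6 had the lowest fold change of the 6, -0.45 ± 0.12 (adjusted p = 0.0168) at 2 h and -0.16 ± 0.11 at 18 h in the authors' deposited table. At both, the value at 18 h lay between that at 2 h and mock. MYADM, a membrane protein gene, stood at -0.36 ± 0.10 (adjusted p = 0.0290) at 2 h and at -0.31 ± 0.10 (adjusted p = 0.228) at 18 h in the authors' deposited table. The values at 2 h were -0.35 ± 0.10 for the alpha-tubulin gene TUBA1A (adjusted p = 0.0494), -0.32 ± 0.09 for DENND4C, an activator of a Rab GTPase (adjusted p = 0.0373), and -0.28 ± 0.08 for UBALD2 (adjusted p = 0.0293) by the authors' deposited table. UBALD2 was the smallest change called, at 1.21-fold. Just short of the threshold were the ribosomal protein gene RPL41, at -0.39 ± 0.11 (adjusted p = 0.0503), and LZTFL1, a gene of ciliary transport, at -0.40 ± 0.12 (adjusted p = 0.0521), by the authors' deposited table. The C/EBP transcription factor gene CEBPB and the p53 inhibitor gene PPP1R13L stood at -0.37 ± 0.11 and -0.36 ± 0.12 there and were also not called.

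**Figure D1:**
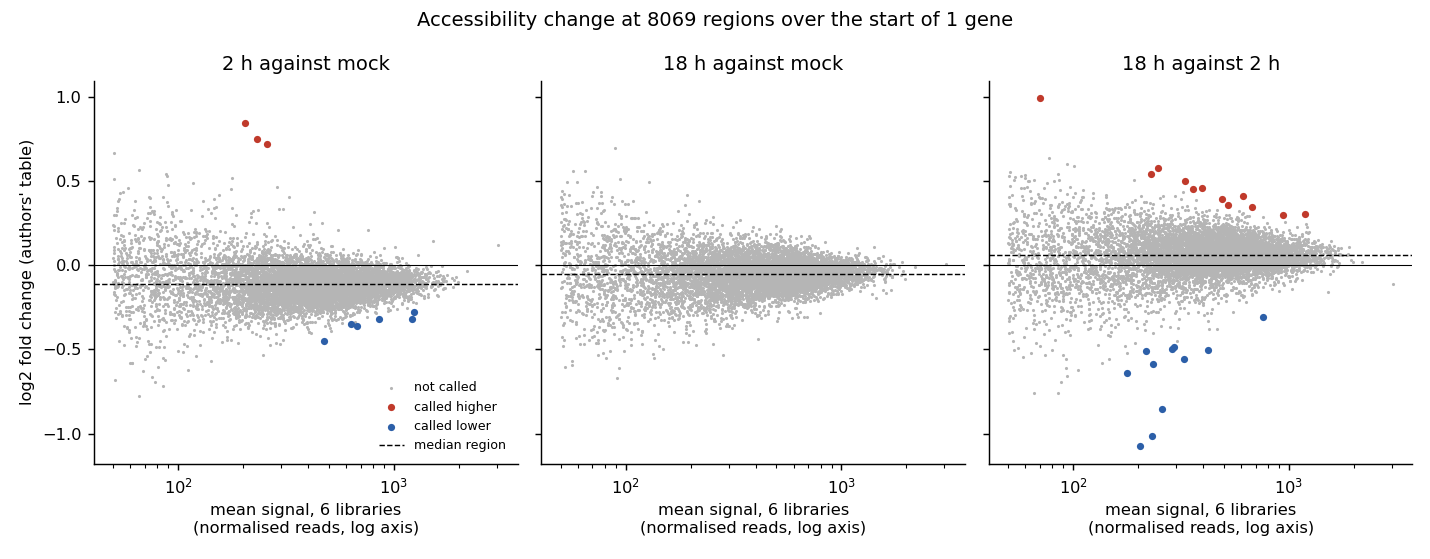
Each point is 1 of the 8069 regions over the start of 1 gene, with the mean signal over 6 libraries on a log axis against the authors' log2 fold change in each comparison; red points were called higher, blue points lower, and the dashed line is the median region. The 3 red points at 2 h stand near 0.8, no point is coloured at 18 h against mock, and the cloud narrows as the signal grows.

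The later time was compared with mock to ask which changes were then present. No member was called at 18 h: 0 of 7446 tested members were higher and 0 lower by DESeq2 at an adjusted p under 0.05 in the authors' deposited table, beside 0.00542% higher and 0.116% lower of all 55341 tested regions. At an unadjusted p under 0.05, 7 members were higher and 131 lower, beside 0.569% higher and 7.32% lower of all tested regions. With an adjusted p under 0.1, 1 member was called, the sodium pump regulator gene FXYD2, at -0.53 (adjusted p = 0.0870 in the authors' deposited table; named because of its value). The median member was at -0.05, against -0.07 over all tested regions.

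Members with at least the median signal reached at most 0.23 upward and 0.44 downward at 18 h, in absolute log2 units. The lowest was LRRC74B at -0.44 ± 0.13 (SE; adjusted p = 0.155), followed by -0.33 ± 0.12 at the microtubule kinase gene MARK1 and -0.32 ± 0.12 at TFF2 in the authors' deposited table. NOV, a relative of CTGF and CYR61, the ephrin gene EFNA1 and the immediate early nuclear receptor gene NR4A1 each stood at -0.31, with SEs of 0.10, 0.11 and 0.10, in the authors' deposited table. Among the highest were ZNF689 (0.23 ± 0.12), ZNF790 (0.22 ± 0.12), the DNA damage checkpoint gene HUS1 (0.21 ± 0.11), FAM24B (0.20 ± 0.11) and HMGN1, which encodes a nucleosome-binding protein (0.19 ± 0.12), in the authors' deposited table. None of these passed the threshold.

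The comparison of 18 h with 2 h asked which starts differed between the times. Here 12 members were higher and 11 lower at 18 h among all 8069 tested, by DESeq2 at an adjusted p under 0.05 in the authors' deposited table, or 0.149% and 0.136%. Of all 108134 tested regions, 0.498% were called higher and 2.98% lower. At an unadjusted p under 0.05, 209 members were higher and 53 lower, beside 3.44% higher and 8.18% lower of all tested regions. The median member stood at 0.06, and 26.5% of members lay below 0, against a median of 0.01 over all tested regions. Over the starts of 2 or more genes the median was also 0.06, with 23.2% below 0. The 3 comparisons came from 1 fit, and this one is the difference of the others, so it shares its libraries with both. The labels give the single mock group no time, so longer exposure and longer culture cannot be told apart here.

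The 11 members lower at 18 h than at 2 h were the 3 that had risen at 2 h and 8 more. The log2 fold change of 18 h against 2 h was -1.08 ± 0.18 (SE; adjusted p = 1.13e-06) at DDAH1, -1.01 ± 0.17 (adjusted p = 1.01e-06) at FAM186A and -0.86 ± 0.15 (adjusted p = 4.60e-06) at ANKRD1 in the authors' deposited table. These were the 3 largest changes of any called member in this direction, and DDAH1 moved 2.11-fold. The next were matrix, muscle and transport genes: -0.64 ± 0.19 (adjusted p = 0.0248) at the cartilage matrix gene MATN3, -0.58 ± 0.16 (adjusted p = 0.0121) at ABCC3, an export pump, and -0.56 ± 0.14 (adjusted p = 0.00530) at JPH2, a junctophilin of heart muscle, in the authors' deposited table. C19orf33 stood at -0.51 ± 0.16 (adjusted p = 0.0492), TFF2 at -0.50 ± 0.12 (adjusted p = 0.00197), the tropomyosin gene TPM1 at -0.50 ± 0.14 (adjusted p = 0.0206), the guanine deaminase gene GDA at -0.49 ± 0.14 (adjusted p = 0.0277) and CPA4 at -0.31 ± 0.09 (adjusted p = 0.0362) by the authors' deposited table. Against mock, all 11 had values above 0 at 2 h (median 0.34) and below 0 at 18 h (median -0.22), of which only the 3 at 2 h passed the threshold. This comparison is the difference of those against mock, so choosing members by it favours opposite signs at the 2 times.

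The 12 members higher at 18 h than at 2 h included immune, developmental, clock and proteostasis genes. FCRLA, an Fc receptor-like gene, had the smallest adjusted p, with 0.41 ± 0.10 (SE; adjusted p = 0.00436) for 18 h against 2 h in the authors' deposited table. CD74, which encodes the invariant chain that guides MHC class II molecules, stood at 0.30 ± 0.08 (adjusted p = 0.00702) at one of the strongest signals of the 12 (1181). The largest change was 0.99 ± 0.31 (adjusted p = 0.0468) at the tyrosine phosphatase gene PTPN6 in the authors' deposited table, at a mean signal of 70.5, the lowest of any called member and with the widest error of them. The homeobox gene HOXA5 stood at 0.58 ± 0.16 (adjusted p = 0.0135), the retinoic acid receptor gene RARB at 0.54 ± 0.17 (adjusted p = 0.0479), the ubiquitin gene UBB at 0.50 ± 0.15 (adjusted p = 0.0261) and BCL9, a coactivator of Wnt signalling, at 0.46 ± 0.13 (adjusted p = 0.0171) by the authors' deposited table. CIART stood at 0.45 ± 0.13, ZNF506 at 0.40 ± 0.12, HUS1 at 0.36 ± 0.11, ZNF253 at 0.34 ± 0.10 and COPS7A, a subunit of the COP9 signalosome, at 0.30 ± 0.09 there, with adjusted p between 0.0161 (ZNF253) and 0.0355 (HUS1). Against mock, all 12 had values below 0 at 2 h (median -0.28) and above 0 at 18 h (median 0.15), and none passed the threshold in either comparison. RARB lost its call under both centrings, and HUS1 and COPS7A under that within bins of signal.

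**Figure D2:**
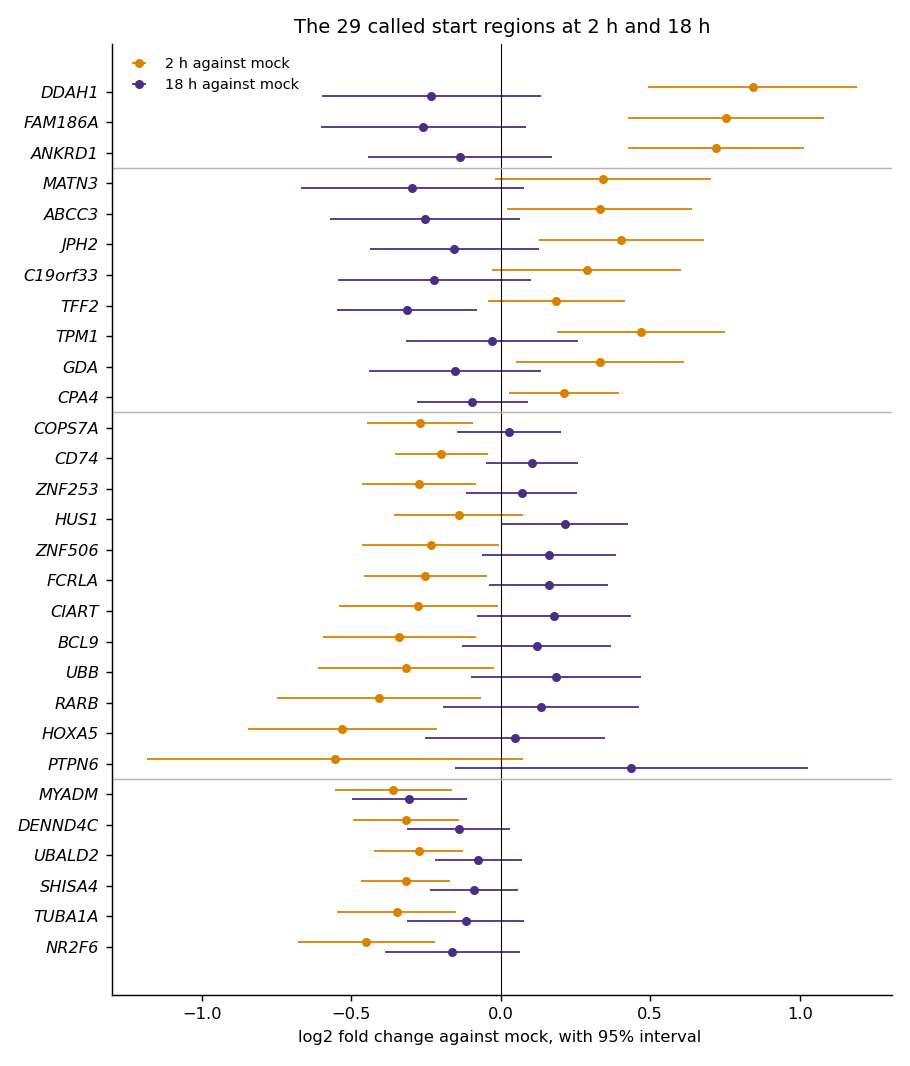
The 29 members called in any comparison, with the authors' log2 fold change against mock at 2 h (orange) and 18 h (purple) and its 95% interval; the groups from top to bottom are called higher at 2 h, called lower at 18 h than 2 h, called higher at 18 h than 2 h, and called lower at 2 h. DDAH1, FAM186A and ANKRD1 stand apart at 2 h with values of 0.72 to 0.84, and their 18 h intervals include 0.

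HMGA1 itself has a start region among the members (chromosome 6, 34236660 to 34237161), with a mean signal of 183. Against mock it stood at -0.26 ± 0.18 on the log2 scale at 2 h (SE; adjusted p = 0.704) and at 0.01 ± 0.17 at 18 h (adjusted p = 0.999) by the authors' deposited table. The start of the gene whose protein was added was therefore not called at either time.

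The size of change that the errors allow was bounded region by region. The 95% interval of the authors' log2 fold change lay wholly within a 1.5-fold change either way for 88.5% of members at 2 h against mock, 90.1% at 18 h against mock and 89.4% at 18 h against 2 h. Over all tested regions, whose median signal was lower, the shares were 54.0%, 80.2% and 41.0%. Between the members' quartiles of signal, the share at 2 h was 98.0% of members and 89.9% of other regions. The median SE of a member was 0.125, 0.123 and 0.124 in these comparisons. A fold change of at least 1.5 was found at 12, 5 and 14 of the 8069 members, and one of at least 2 at 0, 0 and 2 members, called or not. Among all tested regions, one of at least 1.5 was found at 2433 of 86137, 258 of 55341 and 6454 of 108134. Between the members' quartiles of signal, 1 of 4035 members and 142 of 15685 other regions reached it at 2 h. The smallest called change was 1.21-fold at 2 h (UBALD2) and 1.23-fold at 18 h against 2 h (COPS7A). UBALD2 lost its call under both centrings, and COPS7A under that within bins of signal. These sizes therefore do not show how small a change the test could detect.

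Other regions of the same mean signal were called more often. Between the members' quartiles of signal, 1 of 4035 start regions was called higher and 1 lower at 2 h, beside 221 higher (1.41%) and 187 lower (1.19%) of 15685 other regions in the authors' deposited table. At 18 h against 2 h, 6 start regions were called higher and 5 lower, beside 190 higher (1.21%) and 1043 lower (6.65%) of the others. The median SE was 0.124 at the start regions and 0.133 at the others at 2 h, so the stated precision was similar. The SD across regions of the Wald score (fold change over its SE) was 0.724 at the start regions and 1.41 at the others at 2 h. Fold changes at the start regions thus varied less than their SEs allow for. Whether those SEs are too wide, which would make calls rarer there, was not tested. By distance from a start, the share called at 2 h was 0.143% higher and 0.215% lower within 1 kb (1396 regions), 1.09% and 0.806% at 1 to 10 kb (2480), 1.55% and 1.45% at 10 to 100 kb (7178), and 1.90% and 1.41% beyond 100 kb (4263). None of 368 regions over the starts of 2 or more genes was called at 2 h by DESeq2 (0 higher and 28 lower at an unadjusted p under 0.05). Regions are not replicates, and the difference between classes was not tested.

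**Figure D3:**
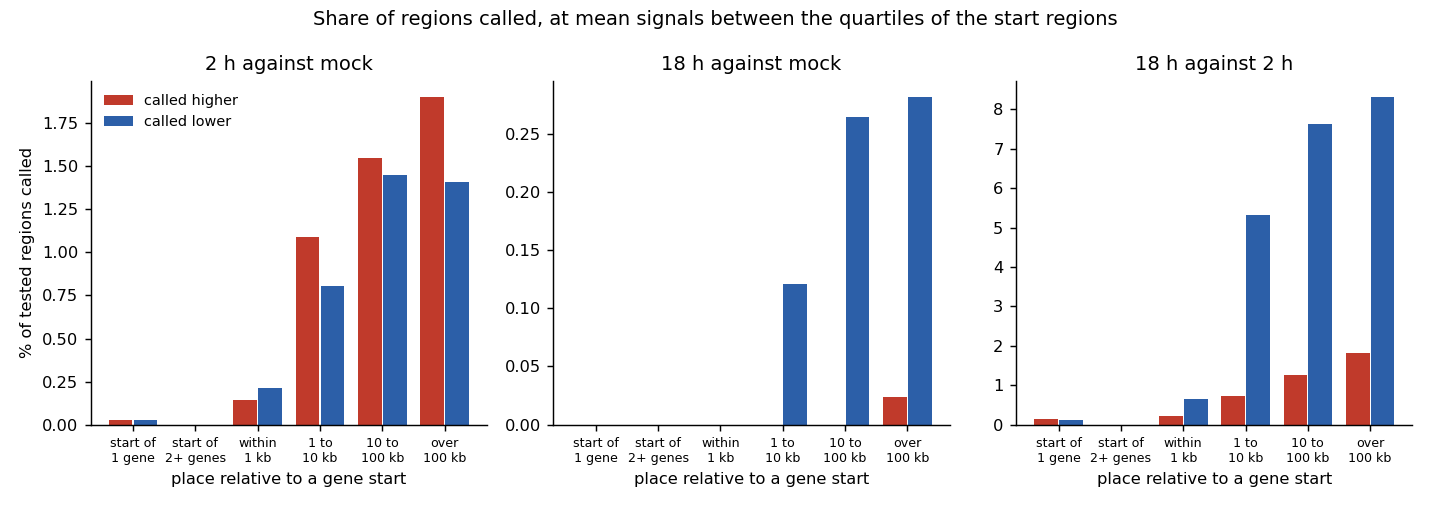
Share of tested regions called higher (red) and lower (blue) in each comparison, by place relative to a gene start, among regions with a mean signal between the quartiles of the start regions (242 to 609); the vertical scales differ between panels. Start regions show the shortest bars beside those over the starts of 2 or more genes, and at 18 h against 2 h the lower calls reach 8.30% beyond 100 kb.

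Regions near a called start gave a mixed picture. Of 17 other tested regions named for DDAH1, 2 were called higher at 2 h, and 3 of 19 were called lower at 18 h than at 2 h in the authors' deposited table. Over all tested regions these shares were 0.856% and 2.98%. For TPM1 the counts were 1 of 15 and 5 of 19, and for GDA 1 of 9 and 2 of 12. ANKRD1 had 0 of 10 called higher at 2 h, with a median of 0.17, and 1 of 10 called lower at 18 h than at 2 h. For the 6 starts that fell at 2 h, no other region named for the same gene was called lower at 2 h, and their medians lay between -0.36 (TUBA1A, 4 regions) and 0.04 (SHISA4, 3 regions). Within 50 kb of TUBA1A, whatever the gene named, 1 of 8 other regions was called lower at 2 h, beside 0.421% of all tested regions, and 0 were called lower within 50 kb of the other 5 starts. For CD74, 1 of 11 other regions was called higher at 18 h than at 2 h, with a median of 0.36, and for BCL9 1 of 13, beside 0.498% of all tested regions. No other region named for HUS1, ZNF506, COPS7A, PTPN6, UBB or RARB was called higher there. The median was -0.21 for RARB (19 regions), below 0 unlike its start, and 0.11 (HUS1) to 0.27 (UBB) for the rest. For MATN3 (2 regions) and TFF2 (1 region), whose starts were called lower, the medians were 0.11 and 0.19, with 0 called.

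Zinc finger genes, which encode DNA-binding proteins often kept in clusters on chromosome 19, formed the largest gene group. Their 335 start regions had medians of -0.11 at 2 h and -0.01 at 18 h against mock and 0.11 at 18 h against 2 h, beside -0.11, -0.05 and 0.06 over all members. ZNF253 and ZNF506, whose start regions lie 44.1 kb apart on chromosome 19, were called higher at 18 h than at 2 h in the authors' deposited table, and 0 were called lower (DESeq2; 24 higher and 0 lower at an unadjusted p under 0.05). Over all members 0.149% were called higher, and 2.59% were higher at an unadjusted p under 0.05. The 178 on chromosome 19 had a median of 0.14 at 18 h against 2 h, with 92.1% of them above 0. The 157 on other chromosomes had one of 0.08, with 84.7% above 0. The 392 other members on chromosome 19 had a median of 0.09 (80.9% above 0), and the 7342 members outside both groups one of 0.06 (72.4% above 0). These zinc finger starts on chromosome 19 also had a lower promoter G+C share, with a median of 59.3% against 66.3% in the members outside both groups; its part in the result was not tested.

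Ribosomal protein genes, whose starts are among the most used of any cell, had the highest median of the groups with 8 or more members at 18 h against 2 h, 0.15 over 58 members. Their medians against mock were -0.15 at 2 h and 0.00 at 18 h. None was called by DESeq2, with 7 lower at 2 h and 6 higher at 18 h against 2 h at an unadjusted p under 0.05, beside 6.99% and 2.59% of all members. The 45 mitochondrial ribosomal protein starts had medians of -0.11, -0.03 and 0.11 in the 3 comparisons, with 0 called by DESeq2 and 4 lower at 2 h and 2 higher at 18 h against 2 h at an unadjusted p under 0.05.

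Immediate early genes, which answer growth factors within minutes and include genes of AP-1 subunits, had 19 start regions among the 25 genes listed. None was called by DESeq2 in any comparison. At 2 h, 2 of the 19 were higher and 7 lower at an unadjusted p under 0.05, beside 0.251% and 6.99% of all members, and the median was -0.14. The 2 higher ones were CTGF and CYR61. The lower ones included JUNB, an AP-1 subunit, at -0.31 ± 0.09 (SE; adjusted p = 0.0621) by the authors' deposited table, and 13 of the 19 lay below the median member. At 18 h against mock 15 of the 19 lay below the median member, with a group median of -0.11 and NR4A1 the one with the smallest p (0.00274, adjusted p = 0.252).

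Genes of melanoma states gave no calls in the authors' scaling. CTGF was called lower at 18 h than at 2 h after both centrings, by the Wald test on the centred fold changes. The adjusted p was 0.0420 after centring on the median and 0.0363 after centring within bins. Of 22 genes listed for the undifferentiated or invasive state, 14 had a start region, with a median of -0.07 at 18 h against 2 h where that of all members was 0.06, and 12 of the 14 lay below the median member. CTGF (-0.38 ± 0.12, SE; the authors' deposited table gave an adjusted p of 0.0539) and CYR61, both also among the immediate early genes, were the 2 lower at an unadjusted p under 0.05 (0.657% of all members), and 0 were called by DESeq2. At the fibronectin gene FN1 the values were -0.24 ± 0.14 at 2 h and -0.25 ± 0.14 at 18 h against mock in the authors' deposited table. Of 18 melanocyte lineage genes, 4 had a start region, namely MITF, SOX10, PAX3 and EDNRB. MITF encodes the regulator of melanocyte identity. Its member region (chromosome 3, 69739095 to 69739596) had a mean signal of 694 and stood at -0.15 ± 0.09 at both times against mock in the authors' deposited table. The gene name does not say which MITF transcript starts there, so the value holds for this region only. Of the markers of other cell types, 0 of 4 keratinocyte genes had a start region above the limit, and fibroblast (PDGFRB), endothelial (KDR) and immune (CD68) markers had 1 of 4 each, all uncalled.

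Genes of signalling pathways gave no calls by DESeq2. Of 10 MAPK output genes, the phosphatase gene DUSP4 stood at 0.32 ± 0.16 (SE; p = 0.0491) and DUSP5 at -0.35 ± 0.11 (p = 0.00248) at 2 h in the authors' deposited table, so members of this list lay on both sides of 0. At 2 h, 1 of 18 NF-kB and interferon genes was higher and 1 lower at an unadjusted p under 0.05. Over all members the shares were 0.251% and 6.99%. The higher one was the chemokine gene CXCL1, at 0.33 ± 0.14 (adjusted p = 0.338) by the authors' deposited table. Of 9 TGF-beta pathway genes, LTBP1, which tethers the latent ligand to the matrix, stood at -0.29 ± 0.10 (adjusted p = 0.274) at 18 h against mock in the authors' deposited table. Among 15 genes of the amino acid response, CEBPB had the smallest p at 2 h.

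Genes of the HMG family and of cell surface proteins that bind its members had 8 start regions of 19 genes listed, with medians of -0.17 at 2 h and -0.13 at 18 h against mock and 0.13 at 18 h against 2 h. None was called by DESeq2. The perlecan gene HSPG2 stood at -0.31 ± 0.13 (SE; p = 0.0203, adjusted p = 0.342) at 2 h, and PLXNA2, a semaphorin receptor gene, at -0.30 ± 0.12 (p = 0.0111, adjusted p = 0.397) at 18 h against mock in the authors' deposited table. The syndecan gene SDC2 stood at 0.22 ± 0.24 at 2 h and -0.44 ± 0.25 at 18 h against mock in the authors' deposited table. It was not called at 2 h, and at 18 h it lay below the signal limit and was not tested. Of 12 homeobox and developmental regulators, HOXA5 was called higher at 18 h than at 2 h and 0 were called lower by DESeq2 (2 higher and 0 lower at an unadjusted p under 0.05, beside 2.59% higher of all members).

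Groups of genes that every cell uses lay close to the median member. The medians at 2 h were -0.08 for 42 replication-dependent histone genes, -0.13 for 21 proteasome genes, -0.09 for 16 genes of respiratory complex I, -0.10 for 12 aminoacyl-tRNA synthetase genes, -0.11 for 11 genes of cholesterol synthesis, -0.10 for 20 genes of the cell cycle and replication and -0.13 for 15 chromatin regulators. Heat shock and oxidative stress genes had a median of -0.17 at 2 h over 10 members, with 3 lower at an unadjusted p under 0.05 (6.99% of all members), among them the chaperone gene HSPA1A, which has the near-identical neighbour HSPA1B, at -0.26 ± 0.11 (SE; adjusted p = 0.285) by the authors' deposited table. None of these groups held a call by DESeq2 in any comparison, and 4 of the 42 histone genes were higher and 0 lower at an unadjusted p under 0.05 at 18 h against 2 h, beside 2.59% of all members higher. HIST1H3A had the smallest p of these, at 0.33 ± 0.12 (adjusted p = 0.114) by the authors' deposited table.

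**Figure D4:**
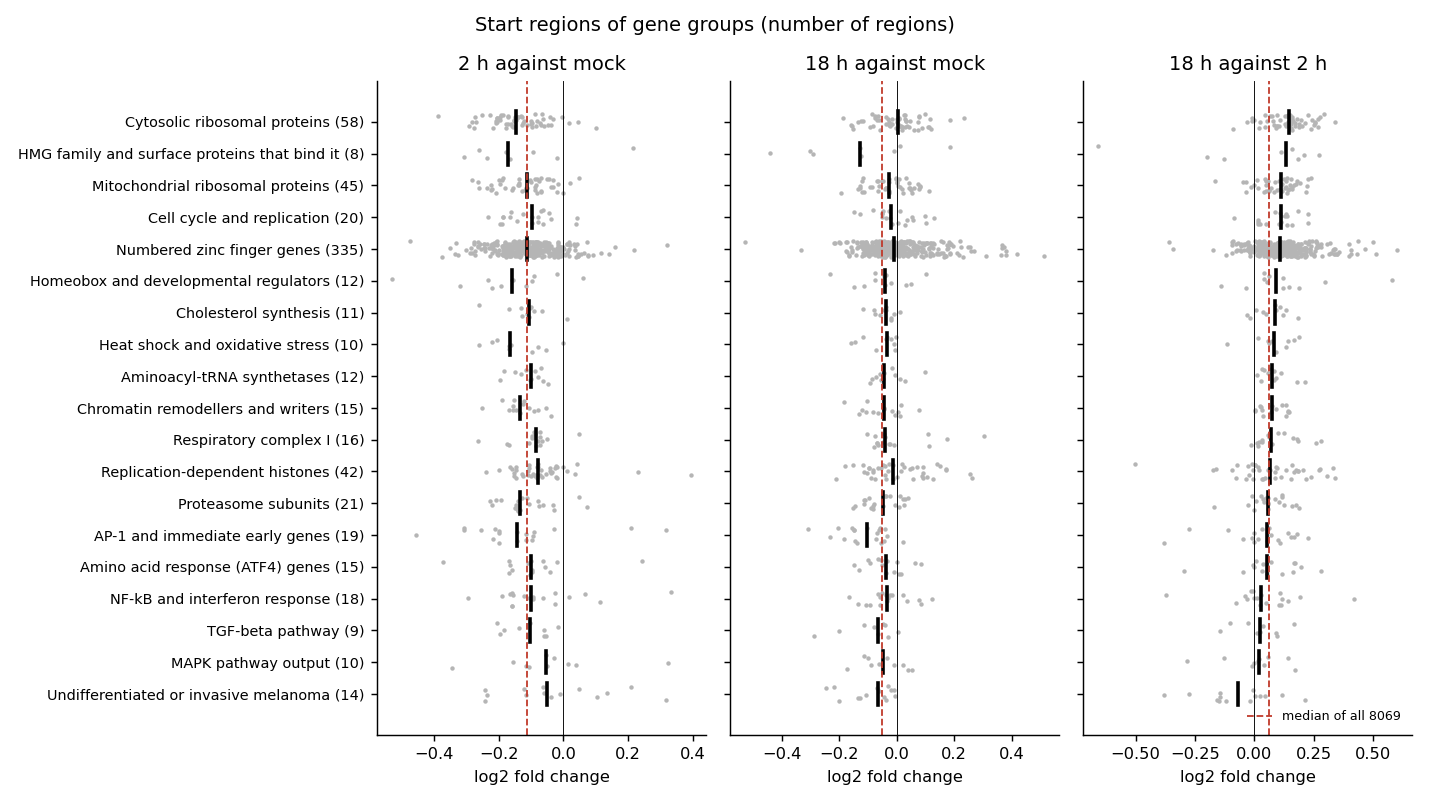
Authors' log2 fold change at the start regions of gene groups with 8 or more members in each comparison; grey points are regions, black bars the group medians and the red dashed line the median of all 8069 members. Ribosomal protein genes stand at the top of the panel of 18 h against 2 h with a median of 0.15, and the undifferentiated or invasive melanoma genes at its foot with -0.07.

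The promoters of the members were rich in G and C. RefSeq gave a promoter of 300 bases for 6540 members (81.1%), and for 92.1% of these its start lay inside the region. The median G+C share was 66.0%, against 58.7% over all 35116 RefSeq promoters, and the median number of CpG pairs was 27, against 14. The GC box was present in 73.7% of the members' promoters and in 45.0% of all, the ETS site in 8.62% and 4.14%, the NRF1 site in 5.63% and 3.05%, the cyclic AMP response element in 3.55% and 1.85%, and the E-box in 10.1% and 7.26%. The TATA box was rarer in the members (5.09% against 11.5%), as was the AP-1 site (4.86% against 7.71%). The CCAAT box was present in 38.3% of the members' promoters and in 34.6% of all.

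Base composition went along with small shifts of the median, given here as a description over regions that share the same libraries. Over 5 groups of 1308 members of rising G+C share, the median at 18 h against mock was -0.03, -0.04, -0.04, -0.06 and -0.08, and the Pearson correlation over the 6540 members was -0.15 (Spearman -0.17). At 2 h against mock it was -0.05 and at 18 h against 2 h -0.09. The longest run of A and T bases, the kind of DNA that HMGA1 binds, had a Pearson correlation of -0.01 at 2 h and 0.05 at 18 h against mock. Members with an AP-1 site in the promoter had a median of -0.09 at 2 h, against -0.11 without one.

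Called members were also set beside the number of CpG pairs in their promoters. The group with 17 or fewer CpG pairs, 1308 of the 6540 members with a promoter sequence, held all 3 higher and 2 of the 5 lower calls at 2 h that had a promoter sequence, and 6 of 8 higher and 6 of 8 lower calls at 18 h against 2 h. The spread of fold changes was also wider in this group, with an SD across members of 0.150 at 2 h, against 0.0937 to 0.106 in the other 4 groups, and its median signal was 297, against 385 to 474. ANKRD1 had 5 CpG pairs in the promoter, DDAH1 6 and FAM186A 2, whereas UBALD2 had 44 and DENND4C 36. For UBALD2, FCRLA and JPH2 the RefSeq start lay outside the region, so these counts describe DNA beside it. For TPM1 it lay 5852.5 bases from the region's centre, so its count describes other DNA. The part of signal and base composition in these calls was not tested.

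**Figure D5:**
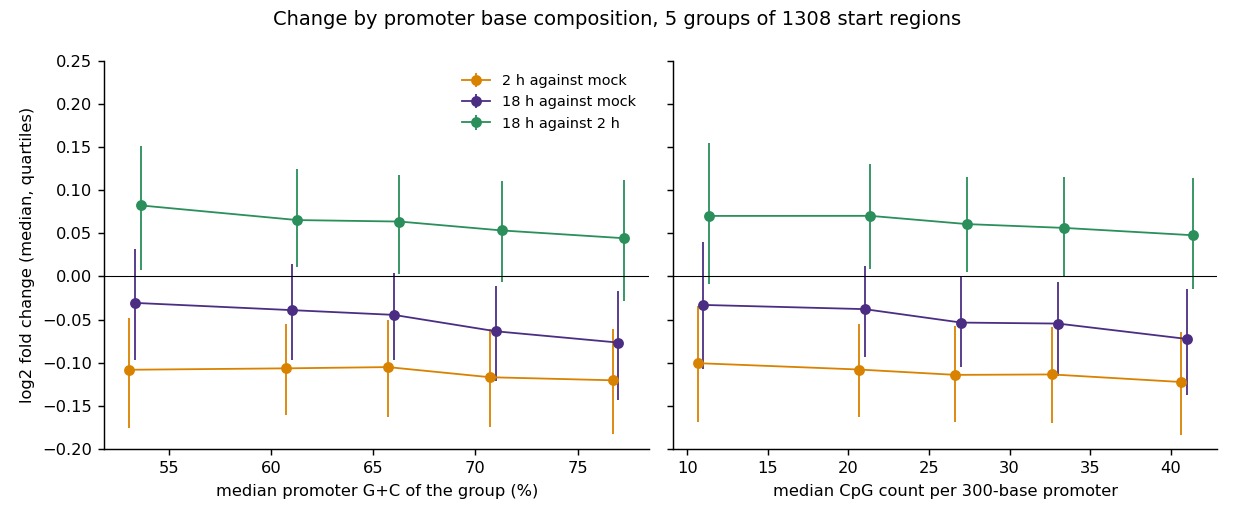
Median log2 fold change with its quartiles in 5 equal-size groups of members by promoter G+C share (left) and number of CpG pairs (right), in each comparison. The medians at 18 h against mock (purple) run from -0.03 to -0.08 across the G+C groups, within quartiles that overlap throughout, and the quartiles at the lowest CpG count are the widest.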

How the data were processed

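ATAC-seq of A375 cells was analysed from the 3 tables of the authors' own comparisons, mapped to hg38 and fitted with DESeq2 per the submitters' processing notes, after demultiplexing with bcl2fastq 2.17. For the aligner, peak caller, counter and any Tn5 shift, nothing was given in the sources used here. The deposited tables held the mean signal over 6 libraries (counts of reads, scaled by size factors of the authors), the authors' log2 fold change with its SE, the deposited Wald score, and the authors' two-sided p-value and adjusted p. No column (0) held the values of 1 library, so the count test planned for such values was not used. The adjusted p is Benjamini-Hochberg over regions above a mean signal of 56.2 in the table of 2 h against mock, 101 in that of 18 h against mock and 41.7 in the third; members below these limits count as not tested. Coordinates are as the files give them, and whether they count from 0 or 1 was not stated. The depth per library is unknown, and the SE gives the precision; intervals cover 95%, from the normal distribution.

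Calls, counts and medians were computed with Python 3.11.15, pandas 2.3.3, numpy 2.4.6, scipy 1.17.1 and matplotlib 3.10.9, and the centring and recalling were tested on simulated data. RefSeq names matched 7967 members, 424 of them through an older name. The members, gene lists and tests were chosen with earlier results of these data known. Named were all called members, the 6 highest and 6 lowest per comparison at or above the median signal, the 10 with the strongest signal, 3 regions either side of the limit, the member of each list with the smallest p per comparison, and HMGA1; a few that this rule names are not reported here. Alternatives were other signal limits, thresholds, ways of adjusting, members and 2 ways of centring.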

Additional observations from a re-analysis of the deposited data

Results flagged for a closer look

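The difference from mock was not the same at 2 h and 18 h at 23 start regions by the authors' deposited comparison of 18 h with 2 h (DESeq2, adjusted p under 0.05). With 1 mock group for both times, length of exposure and time in culture cannot be told apart in it. The difference of the log2 fold changes, 18 h minus 2 h, was -1.08 at DDAH1, -1.01 at FAM186A, -0.86 at ANKRD1, -0.64 at MATN3, -0.58 at ABCC3 and -0.56 at JPH2 in the authors' deposited table. It was -0.51 at C19orf33, -0.50 at TFF2, -0.50 at TPM1, -0.49 at GDA and -0.31 at CPA4 there. In the other direction it was 0.99 at PTPN6, 0.58 at HOXA5, 0.54 at RARB, 0.50 at UBB, 0.46 at BCL9 and 0.45 at CIART in the authors' deposited table. It was 0.41 at FCRLA, 0.40 at ZNF506, 0.36 at HUS1, 0.34 at ZNF253, 0.30 at CD74 and 0.30 at COPS7A there. DDAH1, FAM186A and ANKRD1 were also called at 2 h against mock, and none of the 23 was called at 18 h against mock, where PTPN6 was not tested.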

How the results depend on the processing

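The 9 calls at 2 h against mock became 5 (4 higher, 1 lower) after centring on the median of all tested regions, 7 higher and 0 lower after centring within 20 bins of mean signal, 4 (1 lower) at an adjusted p under 0.01, 25 (21 lower) under 0.1, and 5 (2 lower) with the adjustment taken over all regions with no signal limit. The 0 calls at 18 h against mock became 1 (lower) under 0.1. The 23 calls at 18 h against 2 h became 24 (11 higher, 13 lower) after the first centring and 22 (9 higher, 13 lower) after the second. CTGF and HDAC9 joined the lower calls under both. The 23 became 7 (2 higher, 5 lower) under 0.01, 37 (23 higher) under 0.1 and 13 (6 higher, 7 lower) with no limit. The share of members within a 1.5-fold change was 80.2%, 81.6% and 81.0% (2 h against mock, 18 h against mock, 18 h against 2 h) with a signal limit of 20, and 94.3%, 96.2% and 95.6% with one of 100. The median member moved to -0.05 and -0.02 at 2 h, 0.02 and 0.02 at 18 h against mock, and 0.05 and 0.04 at 18 h against 2 h, after the first and the second centring; the median at 18 h against mock thus lay on the other side of 0. Of 32 calls of named members, 26 were kept after the first centring, 23 after the second, 18 with no limit and 11 under 0.01. No call changed direction under any alternative run. Only the 2 centrings alter a fold change, and by little, so this says nothing about how robust the directions are. Of 69 medians of gene lists over the 3 comparisons, 20 changed sign after the first centring and 25 after the second, with moves of up to 0.07 and 0.10, and 1 each with the signal limits of 20 and 100. Restricting the members to those with the RefSeq start inside the region was added after seeing the data. No paired analysis was possible because the deposited tables hold no values of single libraries; for the same reason other count models, other scalings of the reads and leaving out a library were not run. The unknown depth and 2 libraries per group limit the smallest change that could be called.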

Other observations

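By chromosome, the median start region at 18 h against 2 h was highest on chromosome 19, at 0.10 over 570 members, followed by X, at 0.08 over 271, and lowest on chromosome 4, at 0.04 over 318. At 2 h against mock the medians ran from -0.14 on chromosome 22 (179 members) to -0.09 on chromosome 10 (315 members). The start nearest to FAM186A among the members was that of LARP4, an RNA-binding protein gene, 4.18 kb away, with -0.16 at 2 h in the authors' deposited table and no call, where FAM186A was called higher. The start nearest to TUBA1A was that of TUBA1B, another alpha-tubulin gene, 57.6 kb away, with -0.23 at 2 h and no call in the authors' deposited table. At TFF3, 35.6 kb from TFF2 and of the same trefoil family, the value at 18 h against 2 h was -0.13, uncalled, in the authors' deposited table.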
